A study of Mus musculus with 4 samples.

Results

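The Wnt family of secreted ligands, their receptors and their secreted modulators were examined in the stroma of the mouse thymus, across its cell types and 2 genotypes of the transcription factor Foxn1. The 46 genes were taken from the 32285 features of the deposited matrices by symbol. They are 19 Wnt ligands, 10 Frizzled (Fzd) receptors, the co-receptors Lrp5 and Lrp6 with the Dkk receptor Kremen1, 9 secreted antagonists (Sfrp1, Sfrp2, Sfrp4, Sfrp5, Dkk1 to Dkk4 and Wif1), the 4 R-spondins and the feedback gene Axin2. Expression had been measured by droplet-based 3′ single-cell RNA-seq in CD45-negative thymic cells of 6-month-old C57BL/6 mice, with 2 libraries per genotype and no treatment. The wild-type libraries (WT 1 and WT 2) carry the label mock, and the mutant libraries (Z/Z 1 and Z/Z 2) come from mice homozygous for the LacZ allele of Foxn1, an allele present in the whole body with reduced Foxn1 function. Thymi of several mice were pooled before sorting, the labels do not say whether libraries of a genotype came from separate pools, and p-values then measure the spread between libraries, which may be technical.

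Wnt ligands bind a Frizzled receptor together with Lrp5 or Lrp6, and in the canonical branch of the pathway this stabilises β-catenin, which acts on genes such as Axin2 with factors of the TCF/LEF family. Sfrp proteins and Wif1 bind the ligands, Dkk proteins bind Lrp5 and Lrp6 with Kremen proteins as partners, and R-spondins raise the amount of receptor at the cell surface. In the thymus, Wnt signals from the stroma reach both developing T cells and the thymic epithelial cells (TECs) themselves, and Wnt4 has been tied to the expression of Foxn1 in the epithelium.

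After filtering, 9846 cells remained, 1458 and 456 from the WT libraries and 4455 and 3477 from the Z/Z libraries. TECs numbered 537, 104, 1937 and 1533 in this order, fibroblasts 609, 189, 1221 and 736, endothelial cells 107, 24, 681 and 653, and mural cells (pericytes and vascular smooth muscle) 72, 11, 417 and 323. The summed UMIs per library lay between 2263452 and 19325806 in TECs, between 2813887 and 12193723 in fibroblasts, between 183644 and 4745108 in endothelial cells and between 115103 and 2622536 in mural cells. The median TEC held 14364 and 15485 UMIs in the WT libraries and 5992 and 6167 in the Z/Z libraries. Each lineage led in the marker list of its name, and the part of UMIs estimated to come from free RNA was 4.4% to 13.6%. Of the called barcodes, 211, 203, 256 and 252 in the 4 libraries were also called in another library, and 60, 147, 169 and 70 of these were among the kept cells. The sharing lay within the genotypes, with 202 called barcodes shared by the WT libraries and 249 by the Z/Z libraries, against 0 to 6 for each pair of a WT and a Z/Z library. As cells kept in both libraries of a genotype there were 18 in WT and 28 in Z/Z. The libraries of a genotype may therefore not be independent, which bears on every p-value given here, and the reason was not tested. Levels are given as CPM, the UMIs of a gene scaled to a common total of summed UMIs of the lineage. Foxn1 itself stood at 95.8 and 120 CPM in WT TECs and at 50.2 and 67.8 CPM in Z/Z TECs, and this log2 fold change of −0.72 (SE 0.21) missed the threshold of 0.05 (adjusted p = 0.0602 in edgeR's quasi-likelihood test). The sources used here do not place the LacZ cassette within Foxn1, and whether its 3′ tags can tell the alleles apart is therefore not known.

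Counts are of 3′ tags, and whether intronic reads were included is not certain, since the sources name different releases of the counting software. CPM of different genes were therefore not compared as expression levels, and "most UMIs" ranks counts only. Differences between lineages are given as a description, without a test, since the lineages were defined on these cells. A gene was read as present where it exceeded the highest estimate of free RNA in every library, which held for 29 of the 46 genes in TECs, 27 in fibroblasts, 6 in endothelial cells and 10 in mural cells.

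**Figure D1:**
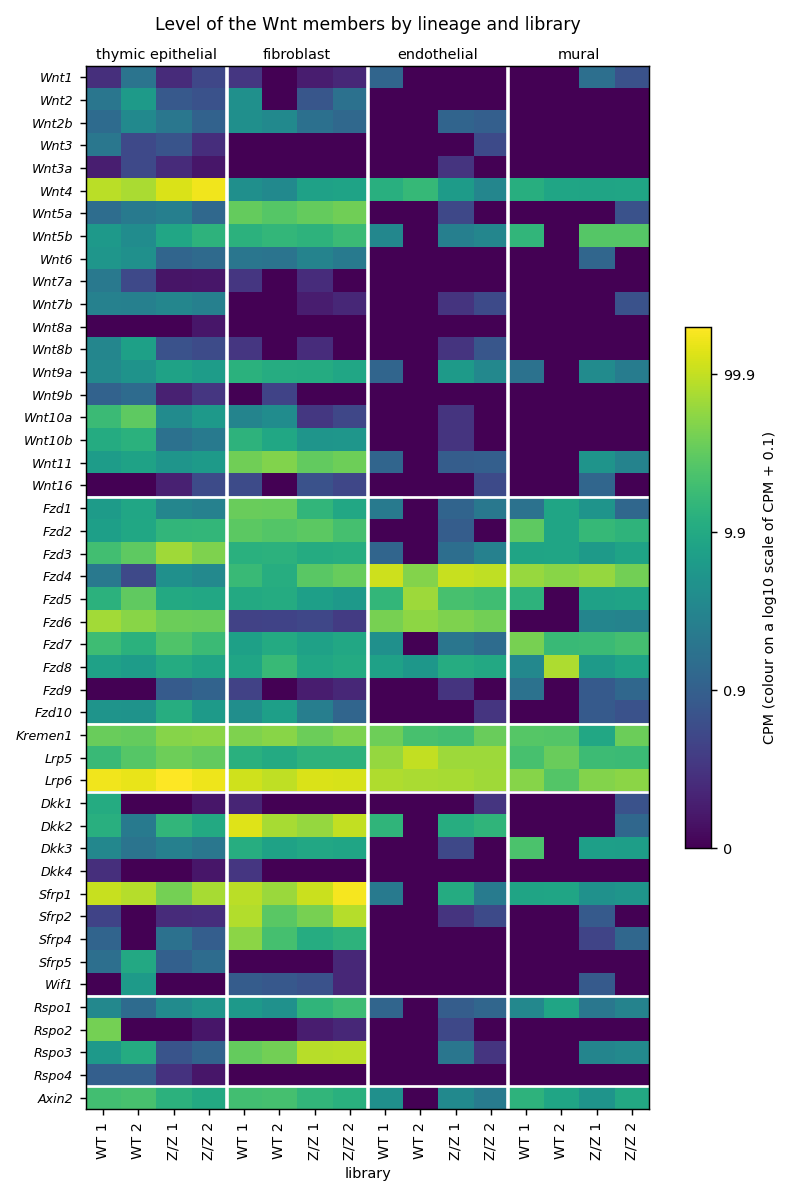
Level of the 46 genes (rows, grouped by role from ligands at the top to Axin2 at the bottom) in each library (columns) of the 4 lineages, as CPM on a log10 colour scale. TECs and fibroblasts fill most rows, whereas endothelial and mural cells are filled mainly in the Frizzled and co-receptor rows.

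Ligands differed in their distribution over the epithelium and the mesenchyme. Wnt4 was the ligand with the most UMIs in TECs, at 92.1 and 76.0 CPM in the WT and 129 and 170 CPM in the Z/Z libraries, and values below keep this order of libraries, against 4.36, 3.55, 7.71 and 8.11 in fibroblasts, where it lay close to its highest free-RNA estimate of 4.15. Wnt10a, at 17.4 and 30.0 CPM in WT, and Wnt10b, at 10.7 and 12.8 CPM in WT, were further ligands of WT TECs. Wnt10b was also present in fibroblasts, at 13.7, 9.24, 5.17 and 5.27 CPM, so that the WT libraries of both lineages overlapped. Fibroblasts held Wnt11 at 38.4, 47.6, 32.5 and 37.0 CPM, and Wnt5a, a ligand best known for β-catenin-independent signalling, at 32.7, 26.7, 32.8 and 38.1 CPM. In TECs Wnt11 reached 5.17 to 7.95 CPM and Wnt5a 1.21 to 2.54 CPM, so that the libraries of both lineages did not overlap for either ligand. In mural cells the ligand with the most UMIs was Wnt5b, at 15.0 CPM in WT 1 and 27.1 CPM in both Z/Z libraries, with 0 UMIs among the 11 mural cells of WT 2. Endothelial cells showed Wnt4 at 12.1, 16.3, 6.32 and 3.15 CPM, with Z/Z 2 below the free-RNA estimate of 4.86, and none of the 19 ligands exceeded its estimate there in every library. Several ligands had 0 UMIs in a whole lineage. These were Wnt3, Wnt3a and Wnt8a in fibroblasts, Wnt2, Wnt6, Wnt7a, Wnt8a and Wnt9b in endothelial cells, and Wnt2, Wnt2b, Wnt3, Wnt3a, Wnt7a, Wnt8a, Wnt8b, Wnt9b, Wnt10a and Wnt10b in mural cells.

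Receptors were spread differently. Fzd4, the receptor for norrin as well as for Wnts in blood vessels, was highest in endothelial cells (111, 49.0, 105 and 96.5 CPM), followed by mural cells (61.5, 52.1, 60.6 and 39.8), fibroblasts (17.1, 11.4, 28.8 and 34.5) and TECs (2.04, 0.442, 4.40 and 3.45). Endothelial and mural libraries overlapped, and all other neighbours in this order were separate. Fzd6, a receptor tied to planar polarity, was held by TECs at 69.9, 51.7, 36.5 and 35.6 CPM and by endothelial cells at 41.7, 54.5, 46.4 and 39.8 CPM, and by fibroblasts at no more than 0.410 CPM, under its free-RNA estimate of 1.26. Fzd2 was the Frizzled with the most UMIs in fibroblasts, at 29.0, 26.3, 29.3 and 21.4 CPM. Lrp6 was found in every lineage. Its levels were 168, 155, 198 and 167 CPM in TECs, 116, 96.3, 128 and 126 in fibroblasts, 81.2, 76.2, 74.8 and 67.2 in endothelial cells and 49.9, 26.1, 48.1 and 53.6 in mural cells, and no 2 lineages overlapped. Lrp5 was highest in endothelial cells, at 59.2, 98.0, 65.1 and 64.5 CPM, above TECs (17.1, 26.5, 37.4 and 31.9), mural cells (21.6, 34.8, 18.3 and 17.9) and fibroblasts (12.4, 10.3, 13.4 and 13.4), with TECs and mural cells overlapping. Kremen1 had 35.2, 33.1, 50.1 and 52.9 CPM in TECs, where its highest free-RNA estimate was 61.0, and 46.3, 51.9, 36.2 and 44.9 CPM in fibroblasts, where that estimate was 29.3.

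Rspo1, Rspo3, Sfrp2, Sfrp4, Dkk2 and Dkk3 had higher levels in every fibroblast library than in any TEC library of the same genotype, whereas Sfrp1 was found in both lineages. Dkk2, an Lrp-binding antagonist, had 138, 74.6, 60.4 and 98.1 CPM in fibroblasts and 12.0, 2.21, 14.8 and 10.0 in TECs, where 76 of the 135 UMIs of WT 1 lay in 1 cell. Sfrp2 had 82.0, 28.4, 41.9 and 86.8 CPM in fibroblasts, and in TECs at most 4 UMIs in a library. Sfrp1, a ligand-binding antagonist, was the member of this role with the most UMIs in both lineages, at 91.3, 62.9, 108 and 180 CPM in fibroblasts and 104, 86.6, 40.5 and 73.1 CPM in TECs. In endothelial cells Dkk2 had 14.3, 0, 11.2 and 14.4 CPM, and 126 of its UMIs lay in cluster 4, an arterial-like cluster that is 1 of 8. In mural cells Dkk3, a divergent member of the Dkk family, had 23.3, 0, 7.25 and 6.91 CPM. Axin2, the transcriptional read-out of the canonical branch, stood at 19.6, 21.7, 13.1 and 9.95 CPM in TECs and at 19.7, 21.3, 14.9 and 12.3 CPM in fibroblasts, at most 4.39 CPM in endothelial cells, and 13.3, 8.69, 4.96 and 9.80 CPM in mural cells. The R-spondins of endothelial and mural cells had at most 9 UMIs in a library. Rspo4 had 0 UMIs in fibroblasts, endothelial and mural cells, and Rspo2 had at most 2 UMIs per library outside the TECs of WT 1.

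In Z/Z TECs, 5 members were higher and 5 lower than in WT. Of the 35 members that passed the filter on low counts, 10 passed an adjusted p of 0.05 in edgeR's quasi-likelihood test, against 21% of all 18664 genes tested in TECs, a share close to that of the members. By direction, 9.49% of all genes were called higher and 11.5% lower. The median log2 fold change of the tested members was 0.24, also with Fzd9 at its lower bound, and −0.01 over all genes. The filter keeps a gene that is high in 1 genotype alone, so these counts do not speak for all 46. The 11 members not tested were Wnt1, Wnt3, Wnt3a, Wnt7a, Wnt8a, Wnt16, Dkk1, Dkk4, Sfrp2, Wif1 and Rspo2.

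Of the ligands, 4 were lower in Z/Z TECs. Wnt10b, a ligand of the canonical branch, fell from 10.7 and 12.8 CPM to 1.6 and 2.13 CPM, a log2 change of −2.49 (SE 0.36, adjusted p = 0.0118). Wnt10a fell from 17.4 and 30.0 CPM to 3.83 and 5.93 CPM (log2 −2.11, SE 0.39, adjusted p = 0.0208). Wnt6 fell from 5.33 and 4.42 CPM to 1.1 and 1.27 CPM (log2 −1.92, SE 0.44, adjusted p = 0.0354). For each of these 3 the groups were separate, as they were for 27 of the 35 tested members and 66.3% of all genes, and every library lay above the free-RNA estimate. Wnt8b had 3.20 and 7.51 CPM in WT and 0.569 and 0.460 CPM in Z/Z, the latter below its highest free-RNA estimate of 0.778 (log2 −3.12, SE 0.64, adjusted p = 0.0272). The counts behind these values were small in WT 2, where Wnt6 had 10 UMIs in 3 cells, Wnt8b 17 in 6 cells, Wnt10b 29 in 14 cells and Wnt10a 68 in 19 cells, 24 of them in 1 cell. In WT 1, 15 of the 36 UMIs of Wnt8b lay in 1 cell. Wnt6 and Wnt10a are neighbours on chromosome 1, at chr1:74771892-74785322 and chr1:74791516-74804179 (GRCm38, plus strand for both), with 6193 bases between them.

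Wnt4 went the other way. It rose from 92.1 and 76.0 CPM to 129 and 170 CPM (log2 0.96, SE 0.19, adjusted p = 0.0242), and every Z/Z library was above both WT libraries. Among the receptors, Fzd3, a Frizzled of the planar polarity branch, rose from 20.2 and 30.0 to 66.9 and 45.7 CPM (log2 1.35, SE 0.29, adjusted p = 0.0301), and Fzd2 rose from 7.2 and 9.28 to 14.6 and 15.4 CPM (log2 1.05, SE 0.27, adjusted p = 0.0452). Fzd9 had 0 UMIs in both WT libraries and 15 and 18 UMIs in the Z/Z libraries (adjusted p = 0.0438), which makes it at least 4.05-fold higher in Z/Z, taking 3 counts over the WT group as the limit a count of 0 allows. Kremen1, from 35.2 and 33.1 to 50.1 and 52.9 CPM, passed the threshold (log2 0.73, SE 0.16, adjusted p = 0.0288) at levels under its free-RNA estimate. None of the 5 secreted antagonists tested passed, and the one with the most UMIs, Sfrp1, had a log2 ratio of −0.61 (SE 0.29, adjusted p = 0.191). Axin2 stood at a log2 ratio of −0.69 (SE 0.25, adjusted p = 0.106), with both Z/Z libraries below both WT libraries and the threshold not passed. Lrp5 (log2 0.86, SE 0.26, adjusted p = 0.0718), Lrp6 (log2 0.32, SE 0.15, adjusted p = 0.182) and Fzd6 (log2 −0.62, SE 0.19, adjusted p = 0.0744) did not pass either.

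Rspo3, an R-spondin at chr10:29452416-29535867 (minus strand), was lower in Z/Z TECs, with 5.86 and 10.6 CPM in WT and 0.621 and 1.03 CPM in Z/Z (log2 −3.11, SE 0.55, adjusted p = 0.0184). The Z/Z levels were below its free-RNA estimate of 1.66. In WT 1, 50 of the 66 UMIs came from 1 cell, and in WT 2 all 24 came from 1 cell, so the WT level rests on very few cells.

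**Figure D2:**
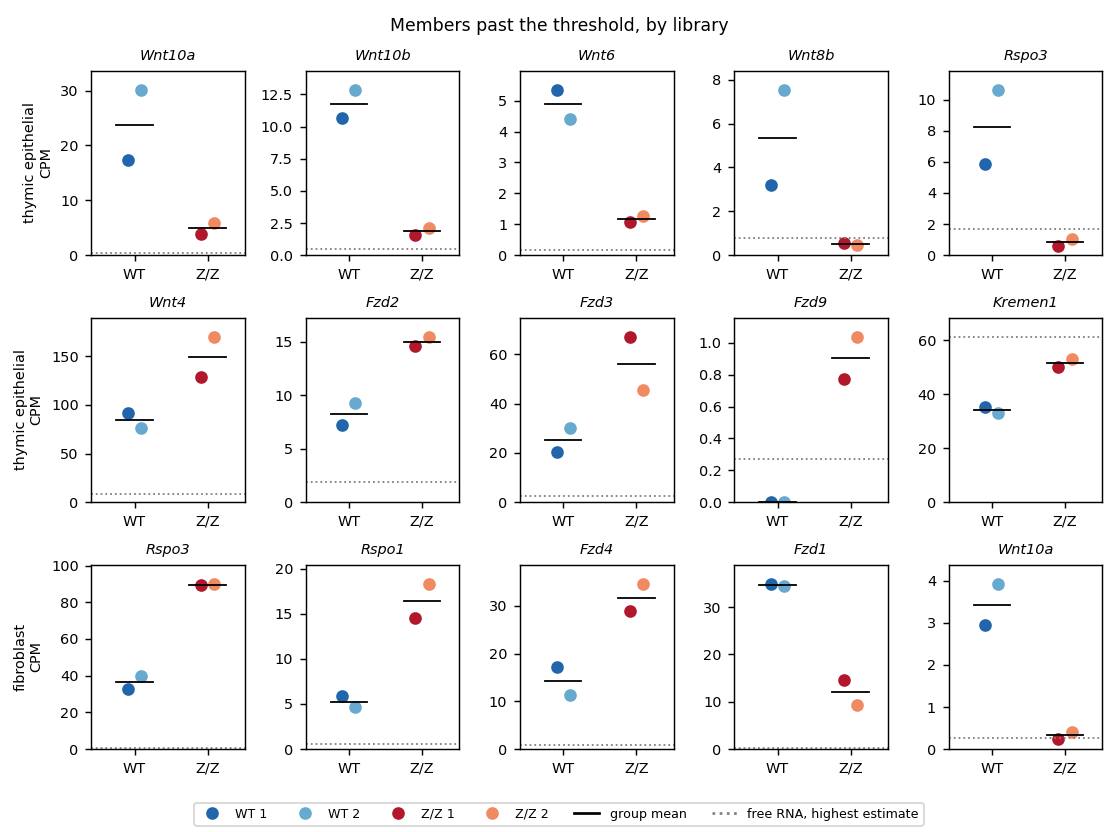
Members past the threshold, as CPM per library (points), with the group mean (bar) and the highest free-RNA estimate (dotted line), in 10 panels for TECs and 5 for fibroblasts. The panels were chosen by the test between the genotypes. The WT and Z/Z points do not overlap in any panel, nor for 66.3% of all genes tested in TECs and 50.5% in fibroblasts. Kremen1 in TECs lies below the dotted line.

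The TEC sums mix sub-clusters whose shares differed between the genotypes. A cluster with markers of Aire-expressing medullary TECs (mTEC2-like) accounted for 45.4% and 37.5% of the WT and 2.68% and 3.65% of the Z/Z epithelium. A proliferating cluster held 5.4% and 5.77% against 1.03% and 1.37%, and the aaTEC2-like cluster, an age-associated TEC state with low epithelial markers, 1.68% and 0% against 27.1% and 20.5%. Over all TECs, the 4 mTEC2 markers summed to 872 and 916 CPM in WT and 131 and 209 in Z/Z, and the 3 proliferation markers to 427 and 611 against 184 and 257. The 4 aaTEC2 markers went against the share of their cluster, at 3314 and 2964 CPM in WT and 1833 and 2282 in Z/Z. Markers of myeloid cells, 4 of 4 detected, summed to 265 and 338 CPM in WT TECs and 62.8 and 80.2 in Z/Z TECs, and the 5 fibroblast markers to 136 and 113 against 176 and 254. The part of these other cells in the results was not tested.

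Within sub-clusters of at least 20 cells, Wnt10a and Wnt10b were highest in the proliferating and mTEC2-like clusters, which were scarce in Z/Z. Wnt10a had 41.6 CPM in proliferating TECs of WT 1 and 74.7 and 69.5 in those of Z/Z 1 and Z/Z 2, and in mTEC2-like cells 20.4 and 38.6 CPM in WT and 23.4 and 26.4 in Z/Z. Wnt10b had 49.7 CPM in proliferating TECs of WT 1 and 31.8 and 27.2 in Z/Z, and in mTEC2-like cells 11.2 and 16.3 CPM in the WT and 9.16 and 7.75 CPM in the Z/Z libraries. Both ligands had 0 UMIs in the aaTEC2-like cells of both Z/Z libraries. Wnt8b had 5.58 and 16.3 CPM in the mTEC2-like cells of WT and 5.09 and 2.33 in those of Z/Z. Wnt6 had 4.01 and 0 CPM there in WT and 11.2 and 6.2 in Z/Z, and 9.37 CPM in cTEC-like cells of WT 1 against 0 and 1.97 in Z/Z. In the mTEC2-like cluster, the largest with 20 cells in every library (244, 39, 52 and 56 cells), 15 members were tested and 0 passed the threshold, as did 0 of all genes tested there. Wnt10a changed there by −0.19 on the log2 scale (adjusted p = 0.931) and Wnt10b by −0.65 (adjusted p = 0.763).

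Wnt4 followed other clusters. Its levels were 295, 308 and 439 CPM in cTEC-like cells of WT 1, Z/Z 1 and Z/Z 2, 181, 169 and 189 CPM in mTEC1-like cells, and 33.0, 33.6, 60.0 and 45 CPM in mTEC2-like cells of the 4 libraries. Clusters 1 and 3, without a name and led by Gm26802 and Rrad, held it at 248 to 276 CPM in the Z/Z libraries. Cluster 1 made up 17.1% and 15.4% of Z/Z TECs and cluster 3 made up 10.7% and 12.1%, against 2.42% to 3.85% of WT TECs for either. The aaTEC2-like cells had 7.84 and 6.79 CPM of Wnt4, both under its highest free-RNA estimate of 7.98. Fzd3 was highest in cluster 6, led by Kctd16, at 157 and 91.7 CPM in Z/Z, and low in mTEC2-like cells, at 3.05 to 6.98 CPM. Of the 33 Fzd9 UMIs, 24 lay in aaTEC2-like cells.

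**Figure D3:**
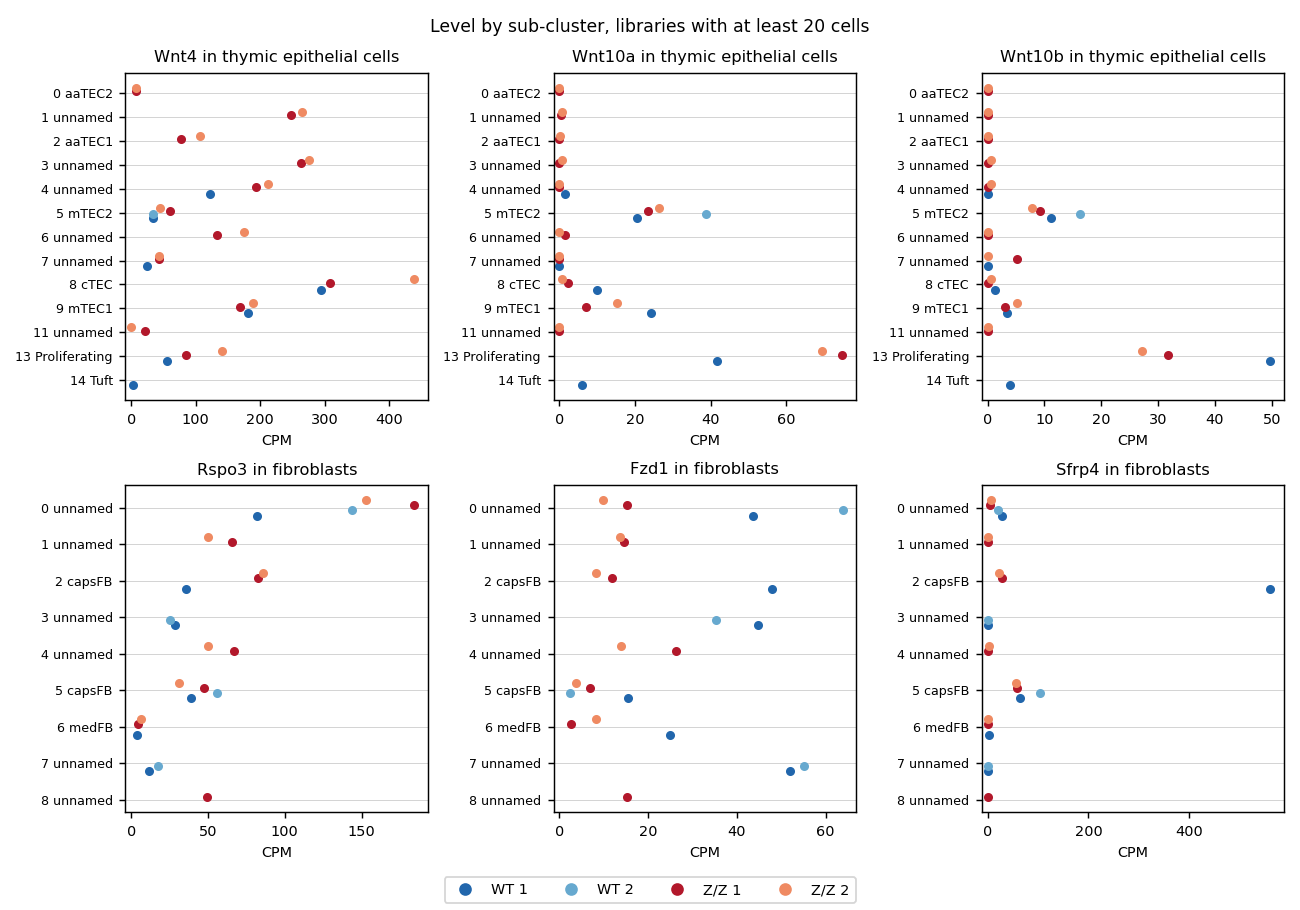
CPM of Wnt4, Wnt10a and Wnt10b by TEC sub-cluster and of Rspo3, Fzd1 and Sfrp4 by fibroblast sub-cluster, 1 point per library with at least 20 cells of the cluster. Wnt10a and Wnt10b are highest in proliferating TECs in both genotypes, and Fzd1 points of Z/Z lie to the left of those of WT in fibroblast cluster 0.

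The calls in TECs depended on single libraries. Without Z/Z 1 or without Z/Z 2, no member and no other gene passed edgeR's threshold. Without WT 1 or without WT 2, members passed, and so did many of all genes tested. With the shared barcodes left out, which takes 147 of the 456 kept cells from WT 2, 0 members passed and the 10 fold changes had the same sign. Of all 17544 genes tested in that fit, 0 were called higher and 3 lower. With each shared barcode kept once, an alternative chosen after seeing the data, 10 members passed, against 1766 higher and 2150 lower of 18654 genes.

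FOXN1 binds DNA with the core letters GACGC, and the promoters of the ligands that were lower in Z/Z TECs are shown because Foxn1 is the altered gene of this study. The 250 bases before the RefSeq start of Wnt6 (chr1:74771642-74771891, plus strand), Wnt10b (chr15:98778151-98778400, minus strand) and Wnt8b (chr19:44493222-44493471, plus strand), all on GRCm38.p6, read as follows, in lower case with GACGC or its reverse complement GCGTC in capitals. The table used here holds no promoter of Wnt10a.
Wnt6: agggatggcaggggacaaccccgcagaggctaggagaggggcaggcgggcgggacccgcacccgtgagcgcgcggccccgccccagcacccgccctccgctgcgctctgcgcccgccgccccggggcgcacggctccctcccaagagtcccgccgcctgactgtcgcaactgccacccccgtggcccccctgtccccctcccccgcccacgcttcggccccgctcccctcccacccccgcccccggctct
Wnt10b: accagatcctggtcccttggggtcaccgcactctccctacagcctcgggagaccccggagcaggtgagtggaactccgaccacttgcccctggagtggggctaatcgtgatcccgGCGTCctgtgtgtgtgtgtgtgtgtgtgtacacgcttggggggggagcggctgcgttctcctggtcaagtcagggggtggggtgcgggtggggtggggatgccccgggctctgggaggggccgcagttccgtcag
Wnt8b: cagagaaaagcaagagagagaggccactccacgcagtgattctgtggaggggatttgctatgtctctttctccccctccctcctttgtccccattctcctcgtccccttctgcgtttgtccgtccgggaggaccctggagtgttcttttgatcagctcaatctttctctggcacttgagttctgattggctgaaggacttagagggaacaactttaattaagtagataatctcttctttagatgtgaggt
The word was found in the Wnt10b window and not in those of Wnt6 and Wnt8b. Over all members, 12 of 32 promoters of 29 genes (37.5%) held it on either strand, against 22.6% of 32851 RefSeq promoters of this length, but the members' promoters had a median GC content of 68.6% against 52.4%, and 47% of the 7642 promoters within the interquartile range of the members' GC content held the word. The TCF/LEF word CTTTGNN with A or T at each N, read on both strands, was in 4 of 32 (12.5%) and in 14.8% of all promoters.

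In fibroblasts, the R-spondins rose and Fzd1 fell. Of 29 members tested, 5 passed the threshold, 3 higher and 2 lower, against 2.72% of all 13872 genes tested in fibroblasts (1.61% higher and 1.1% lower). The median log2 fold change was −0.16 over the tested members and 0.01 over all genes. Rspo3 rose from 32.9 and 39.8 CPM to 89.3 and 89.7 CPM (log2 1.39, SE 0.17, adjusted p = 0.00429), and its UMIs were spread over 117, 34, 413 and 243 cells. Rspo1 rose from 5.90 and 4.62 to 14.5 and 18.2 CPM (log2 1.66, SE 0.28, adjusted p = 0.0181). These were the R-spondins that could be tested in fibroblasts, and for both every Z/Z library lay above both WT libraries. Groups that did not overlap were found for 21 of the 29 tested members and 50.5% of all genes.

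Of the receptors, Fzd4 rose from 17.1 and 11.4 to 28.8 and 34.5 CPM (log2 1.17, SE 0.23, adjusted p = 0.0353), and Fzd1 fell from 34.8 and 34.5 to 14.7 and 9.32 CPM (log2 −1.44, SE 0.25, adjusted p = 0.0198). Fzd1 is a canonical Wnt receptor. The ligand Wnt10a had 2.95 and 3.91 CPM in WT and 0.246 and 0.405 in Z/Z, 3 UMIs in each Z/Z library (log2 −3.29, SE 0.66, adjusted p = 0.0362). Near the threshold were Sfrp4 with 52.5, 21.3, 11.0 and 13.7 CPM (log2 −1.57, SE 0.35, adjusted p = 0.0539, with 173 of the 445 UMIs of WT 1 in 1 cell), Sfrp1 (log2 0.95, adjusted p = 0.0906) and Wnt10b with 13.7, 9.24, 5.17 and 5.27 CPM (log2 −1.10, adjusted p = 0.0977). Axin2 (log2 −0.51, SE 0.23, adjusted p = 0.283), Lrp5 (log2 0.29, adjusted p = 0.594), Lrp6 (log2 0.32, adjusted p = 0.318) and Kremen1 (log2 −0.21, adjusted p = 0.608) did not pass. The members not tested were Wnt1, Wnt3, Wnt3a, Wnt7a, Wnt7b, Wnt8a, Wnt8b, Wnt9b, Wnt16, Fzd6, Fzd9, Dkk1, Dkk4, Sfrp5, Wif1, Rspo2 and Rspo4, of which Fzd6 and Fzd9 had at most 5 UMIs in a library.

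**Figure D4:**
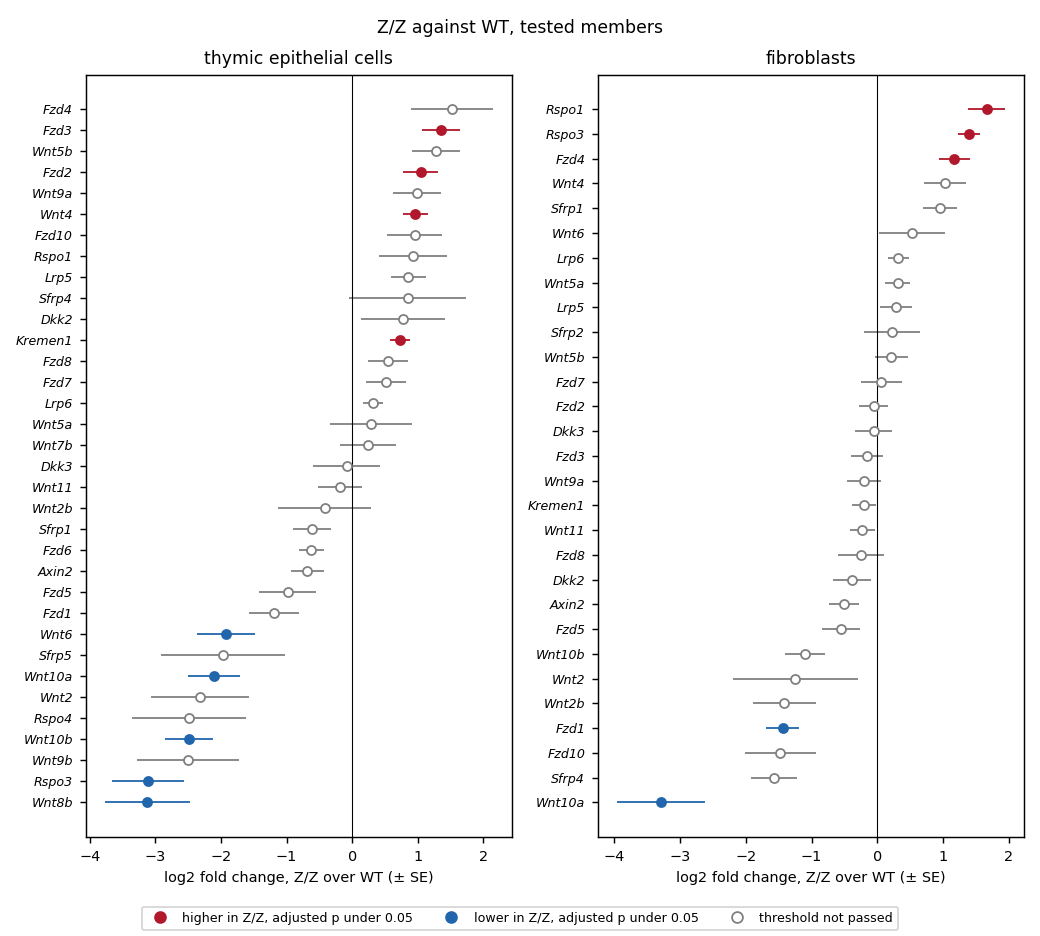
Log2 fold change of Z/Z over WT with its standard error for the tested members in TECs (left) and fibroblasts (right), filled where the adjusted p was under 0.05. Fzd9 in TECs is left out because both WT libraries had 0 UMIs. Rspo3 is among the lowest values on the left at −3.11 and among the highest on the right at 1.39.

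The shares of fibroblast sub-clusters also differed. Cluster 3, unnamed and led by Csf2rb, made up 37.1% and 45.5% of WT fibroblasts and 0.328% and 1.63% of Z/Z fibroblasts, while cluster 0, also unnamed, made up 12.0% and 11.1% against 19.1% and 33.0%, and cluster 2, called capsFB-like from markers of capsular fibroblasts, 4.43% and 3.70% against 15.9% and 26.1%. Rspo3 had 28.2 and 25.1 CPM in cluster 3 of the WT libraries, 82.2, 144, 184 and 153 CPM in cluster 0 of the 4 libraries, and 35.4, 82.4 and 86.1 CPM in cluster 2 of WT 1, Z/Z 1 and Z/Z 2. Fzd1 had 43.6 and 63.8 CPM in WT and 15.2 and 9.74 CPM in Z/Z within cluster 0, 47.9 against 11.8 and 8.18 CPM within cluster 2, and 44.7 and 35.3 CPM in cluster 3. In a test confined to cluster 0 (73, 21, 233 and 243 cells), 2 members passed, Dkk2 and Dkk3. This count singles out the 2 after their values were seen. Of all 9927 genes tested in cluster 0, 41 were called higher and 38 lower. There, Fzd1 had a log2 ratio of −1.92 (adjusted p = 0.059), Rspo3 of 0.77 (adjusted p = 0.282), Rspo1 of 0.98 (adjusted p = 0.349) and Fzd4 of 1.11 (adjusted p = 0.313). Among markers of other cell types in the fibroblast sums, the 5 TEC markers stood at 57.2 and 42.3 CPM in WT against 67.7 and 81.6 in Z/Z, the 5 mural markers at 91.3, 84.9, 162 and 90.7 CPM, and the 4 aaTEC2 markers at 1822, 1672, 1492 and 1986 CPM, a list that fibroblasts share. Their part in the results was not tested.

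Sfrp1 moved differently within clusters than in the lineage sum. It had 395 and 542 CPM in WT and 250 and 308 CPM in Z/Z in cluster 0, and 669 CPM in WT 1 against 187 and 210 in Z/Z in cluster 2, although the sum over all fibroblasts was larger in Z/Z. In cluster 3, abundant in WT alone, Sfrp1 had 9.4 and 7.06 CPM, and in cluster 5 it had 43.7 and 34.7 CPM in WT against 92.6 and 51.1 in Z/Z. Sfrp4 had 561 CPM in cluster 2 of WT 1, a cluster with 27 cells and 269 Sfrp4 UMIs in that library, and 29.4 and 22.8 CPM in Z/Z. Dkk2 had 427 and 271 CPM in cluster 0 in WT against 83.8 and 115 in Z/Z. Wnt10b was held by cluster 5, also capsFB-like, at 45.9, 37.1, 44.9 and 42.0 CPM, and that cluster made up 21.8% and 10.6% of WT and 3.85% and 5.84% of Z/Z fibroblasts.

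Leaving out 1 library changed the calls in fibroblasts less. Each such fit leaves 1 library in a genotype. The number of members that passed differed between these fits, as did the number over all genes. Rspo3 and Rspo1 passed in each of the 4 fits with a library left out. Fzd1 did not pass without WT 1 (adjusted p = 0.0547), Fzd4 not without WT 2 (adjusted p = 0.0883), and Wnt10a passed only without Z/Z 2 (adjusted p = 0.0208), with values of 0.143, 0.162 and 0.0596 without WT 1, WT 2 and Z/Z 1.

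In endothelial cells, 0 of 9 tested members passed edgeR's threshold, against 1.07% of all genes (0.546% higher and 0.528% lower). An unadjusted p under 0.05 was found for 1 member, Wnt4 (adjusted p = 0.249), and for 1974 of all 11178 genes. DESeq2 called 0 of the 9 members, with no adjusted p for 5 of them, against 79 higher and 86 lower of all 11178 genes. In mural cells, 0 of 9 passed, against 0.0221% of all genes (0.011% in either direction). An unadjusted p under 0.05 was found for 0 of the 9, against 849 of all 9064 genes, and DESeq2 gave no adjusted p for any of the 9. CPM of the groups did not overlap for 3 of 9 members in each of these lineages, against 52.8% of all endothelial and 43.7% of all mural genes. The WT sums here hold 107 and 24 endothelial and 72 and 11 mural cells, and the number of UMIs behind most members was small. Fzd4, for example, had a log2 ratio of 0.12 (SE 0.29, adjusted p = 0.871) in endothelial and of −0.19 (SE 0.38, adjusted p = 0.913) in mural cells. The 5 mural markers in the endothelial sums stood at 13.2 and 10.9 CPM in WT against 92.7 and 133 CPM, and in the mural sums the 5 fibroblast markers went from 188 and 217 to 369 and 388 CPM.

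The vessel cells nevertheless differed among themselves in receptors. In capillary-like cluster 6, led by Pot1a, Fzd4 had 173, 214 and 176 CPM and Lrp5 80.9, 191 and 224 CPM in WT 1, Z/Z 1 and Z/Z 2, while in venous-like cluster 3 Fzd4 had 90.9, 66.2 and 64.7 and Lrp5 42.0, 60.0 and 44.8 CPM. In the Z/Z libraries Fzd6 had 13.0 and 14.7 CPM in capillary-like cluster 5, 140.6 and 71.9 CPM in capillary-like cluster 6 and 83.5 and 68.0 CPM in the arterial-like cluster. Among mural cells, Wnt5b had 43.8 and 45.4 CPM in smooth-muscle-like cluster 0 and 6.2 and 2.63 CPM in smooth-muscle-like cluster 2 of the Z/Z libraries. Fzd4 had 125 and 104 CPM in pericyte-like cluster 4 of the same libraries.

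The change between genotypes was then compared between fibroblasts and TECs in 1 model with the library as a block. Of 33 members, 6 differed, 2 with a more positive change in fibroblasts and 4 with a more positive change in TECs, against 10.3% of all 18278 genes (4.56% and 5.76%). Rspo3 differed most, by 4.44 on the log2 scale (SE 0.36, adjusted p = 0.000823), with the TEC side resting on the few cells named above. Sfrp1 differed by 1.63 (SE 0.20, adjusted p = 0.00234), with 104 and 86.6 CPM in WT against 40.5 and 73.1 in Z/Z TECs, and 91.3 and 62.9 against 108 and 180 CPM in fibroblasts. Fzd3, Fzd10, Kremen1 and Sfrp4 changed more positively in TECs, by −1.51, −2.38, −0.90 and −2.54 in fibroblasts relative to TECs. Rspo3 and Sfrp1 passed without any 1 library. The number of members that passed changed with the library left out, as did the number over all genes.

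**Figure D5:**
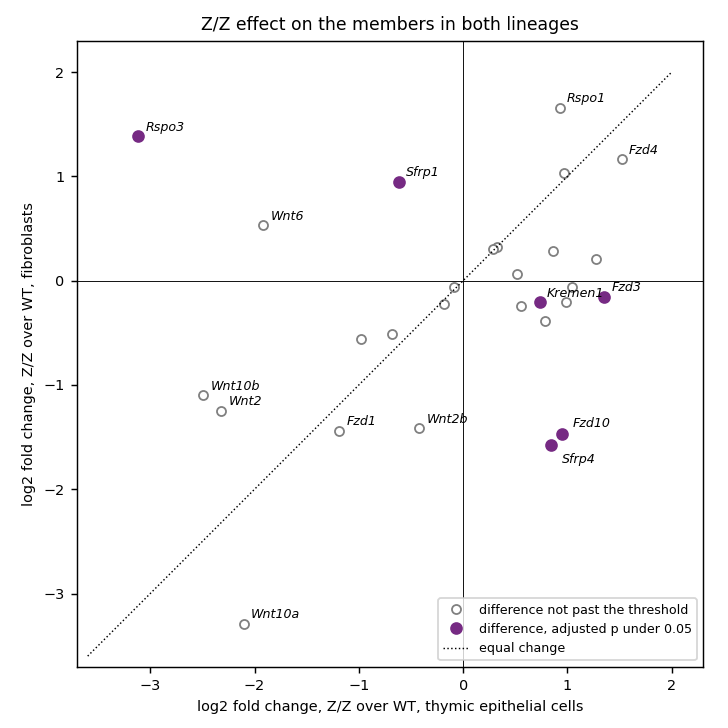
Log2 fold change of Z/Z over WT in TECs (x axis) against fibroblasts (y axis) for the members tested in both, with filled points where the difference between the lineages passed the threshold. Rspo3 and Sfrp1 lie above the dotted line of equal change, in the upper left, and Fzd3, Fzd10, Kremen1 and Sfrp4 lie below it.

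Other genes of the pathway, 50 in a list chosen with the members, gave the setting for these values. In TECs 44 were tested and 13 passed, 10 higher and 3 lower, against 21% of all genes (9.49% higher and 11.5% lower). Of 9 other receptors and receptor-turnover genes tested, 3 rose and 0 fell, of 9 cytoplasmic genes 4 rose and 0 fell, of 12 nuclear genes 2 rose and 1 fell, and of 7 planar polarity genes 1 rose and 1 fell. The planar polarity genes were Prickle1 (18.4 and 26.1 CPM against 98.2 and 78.8, with a free-RNA estimate of 30.8, log2 2.19, adjusted p = 0.00712) and Celsr1, which fell (log2 −0.73, adjusted p = 0.0423). The receptors Ror1 (133 and 124 against 241 and 238, log2 1.04, adjusted p = 0.00848) and Ptk7 (20.1 and 17.7 against 34.9 and 33.9, log2 1.0, adjusted p = 0.0203) rose, while Ror2, of the same family as Ror1, had 5.06 and 9.72 against 2.64 and 1.9 CPM (log2 −1.49, adjusted p = 0.0844) and did not pass. Lgr5, a receptor for R-spondins, rose from 2.31 and 6.19 to 42.8 and 16.4 CPM (log2 3.21, adjusted p = 0.0288). Components of the β-catenin destruction complex and its regulators, Apc (log2 0.71), Gsk3a (log2 0.74), Csnk1a1 (log2 0.56) and Dvl2 (log2 1.08), and the nuclear factors Pygo1 (log2 1.23) and Tcf7l1 (log2 0.74) were the other genes that rose. Sostdc1, a secreted antagonist of Wnt and BMP signals, fell from 12.2 and 5.30 to 0.362 and 0.460 CPM (log2 −4.29, adjusted p = 0.01), and Tcf7, a factor with high levels in T cells, fell (log2 −1.26, adjusted p = 0.0436) at levels under its free-RNA estimate of 103 CPM. In fibroblasts 0 of 40 passed in edgeR, against 2.72% of all genes, in endothelial cells 0 of 33 and in mural cells 0 of 31. An unadjusted p under 0.05 was found for 15 in fibroblasts, against 2498 of all 13872 genes. It was found for 3 in endothelial cells, against 1974 of 11178, and for 0 in mural cells, against 849 of 9064. DESeq2 called 2 in fibroblasts, against 300 higher and 245 lower of all 13872 genes. It called 0 in endothelial cells, against 79 higher and 86 lower of 11178, with no adjusted p for 20 of the pathway genes. In mural cells it called 0, against 12 higher and 2 lower of 9064, with no adjusted p for 22. Of the 47 tested for a difference between fibroblasts and TECs, 7 passed, against 10.3% of all genes, of which Rnf43 was more positive in fibroblasts and Prickle1, Ror1, Apc, Ptk7, Pygo1 and Tcf7l1 more positive in TECs.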

How the data were processed

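Single-cell 3′ RNA-seq libraries of CD45-negative thymic stroma from 4 samples were compared, 2 WT and 2 Z/Z, grouped by the titles and genotypes of the labels. Per the labels, the authors aligned and counted reads with Cell Ranger (version 7.01 in the submitters' processing notes, on GRCm38.p5 or mm10), whereas the matrix headers name another release. The deposited values are raw UMI counts per gene and cell. The deposited sequencing metrics, in percent, entered no result. The labels disagree on the sex of the mice, and the labels and the study's methods disagree on the version of the chemistry.

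Called cells with more than 1000 genes and under 20% mitochondrial UMIs were kept, and the 3.9% of cells with the highest doublet scores were removed. Cells were clustered (Leiden, resolution 1) without the Wnt genes and without the marker genes, and lineages and sub-clusters were named from marker lists with the suffix "-like". Clusters with signs of another lineage, 0.617%, 0.219%, 3.25% and 4.26% of the kept cells of WT 1, WT 2, Z/Z 1 and Z/Z 2, were set apart by thresholds chosen after seeing the data. Free RNA was estimated from empty droplets. UMIs were summed per lineage and library, filtered by filterByExpr, scaled by TMM and tested with edgeR 4.0.16 (quasi-likelihood, two-sided, Benjamini-Hochberg adjustment over all genes tested, threshold 0.05), and SE is the log2 fold change divided by the square root of F. The difference between fibroblasts and TECs was an interaction term in a fit of 8 sums with the library as a block. DESeq2 1.42.0 was an alternative, and the effect of the alternatives is given in the closing section. The lineage fits were tested on simulated data, and the interaction fit was not. Depth per library and lineage, which sets the counting error, is given in the report. PCR duplicates were collapsed by UMI. Counting error is not the only error within a library, since free RNA and the few cells behind some genes add to it.

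The 46 genes and the 50 other pathway genes were chosen with earlier results of these data known. Values per library are given for members past the threshold, for the member with the most UMIs of each role in a lineage, and for Axin2, Lrp5, Lrp6 and Kremen1, and other pathway genes are named where they passed. Gene coordinates are from GENCODE vM21 and promoters from RefSeq (GRCm38.p6), which held 29 of the 46 genes.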

Additional observations from a re-analysis of the deposited data

Results flagged for a closer look

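The change from WT to Z/Z differed between fibroblasts and TECs for 6 members, by the interaction term in edgeR's quasi-likelihood test. Values are the log2 change in fibroblasts minus that in TECs. For Rspo3 it was 4.44 (adjusted p = 0.000823), with 33 to 40 CPM in WT and 89 to 90 CPM in Z/Z fibroblasts, and with 50 of 66 UMIs of WT 1 TECs and all 24 of WT 2 TECs in 1 cell each. For Sfrp1 it was 1.63 (adjusted p = 0.00234). Within fibroblast cluster 0, however, Sfrp1 had 395 and 542 CPM in WT against 250 and 308 in Z/Z, the reverse of the lineage sum. Within cluster 2 it had 669 CPM in WT 1, with 27 cells, against 187 and 210 in Z/Z, also the reverse. In cluster 5 it was higher in Z/Z, as in the lineage sum. Fzd3 gave −1.51 (adjusted p = 0.0226), Fzd10 −2.38 (adjusted p = 0.0247), Kremen1 −0.90 (adjusted p = 0.0335) and Sfrp4 −2.54 (adjusted p = 0.0381). Kremen1 lay in TECs under its highest free-RNA estimate of 61.0 CPM, and in fibroblasts that estimate was 29.3 CPM. Fzd10 had 5.06, 4.86, 11.3 and 6.1 CPM in TECs and 4.13, 7.11, 2.46 and 1.08 CPM in fibroblasts of WT 1, WT 2, Z/Z 1 and Z/Z 2, and Sfrp4 had at most 1.6 CPM in TECs and, in WT 1 fibroblasts, 173 of its 445 UMIs in 1 cell. Rspo3 and Sfrp1 passed under all 16 alternatives, between 3.32 and 6.03 and between 1.45 and 2.13, and a fit within 1 cluster was not among these. Of the same 16, Fzd3, Fzd10 and Sfrp4 passed under 10 each and Kremen1 under 8. The shares of sub-clusters and the markers given in the report differed between the genotypes as well, and their part in these differences was not tested.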

How the results depend on the processing

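For TECs, fibroblasts and the interaction, brackets after a member count hold the numbers called higher, called lower and tested among all genes. Where a TEC or fibroblast count has no brackets, these numbers are listed apart, in the same order. TECs gave 1184, 1604 and 12598 with cells thinned to 2000 UMIs, and 1346, 1677 and 17937 with free RNA subtracted. They gave 0, 0 and 10972 in the largest cluster, and 2512, 2748 and 27110 without the filter on low counts. With shared barcodes left out they gave 0, 3 and 17544. In TECs 10 members passed (1771, 2153 and 18664), and 8 in DESeq2 (1855, 2342 and 18664). The count was 6 with cells thinned to 2000 UMIs, 4 with free RNA subtracted, 0 in the largest cluster, 16 without the filter on low counts, 0 with shared barcodes left out, and 0 to 15 with a library left out. In fibroblasts it was 5, 6 in DESeq2, and 2 after thinning, in the largest cluster and with shared barcodes left out, 8 without the filter, and 3 to 7 with a library left out. Over all genes, fibroblasts gave 224, 153 and 13872, and 300, 245 and 13872 in DESeq2. They gave 106, 54 and 9802 after thinning, and 41, 38 and 9927 in the largest cluster. With shared barcodes left out they gave 102, 59 and 13766, and without the filter 804, 510 and 23197. In TECs and fibroblasts the numbers over all genes also changed with the library left out. In endothelial and in mural cells the member count was 0 in every fit that kept all libraries. In mural cells the member count changed for Fzd8 without WT 1. That fit leaves the 11 mural cells of WT 2, in which 8 of the 9 Fzd8 UMIs lay in 1 cell. The interaction gave 6 (833, 1053 and 18278), and 2 in DESeq2 (602, 748 and 18278) and with shared barcodes left out (437, 364 and 17674). It gave 3 with free RNA subtracted (460, 553 and 17911) and 10 without the filter (1343, 1767 and 27528), and its count changed with the library left out. Same-numbered libraries did not deviate together (r = −0.077 in TECs and −0.048 in fibroblasts). A replicate block gave 3 in TECs (1028, 1412 and 18664) and 2 in fibroblasts (105, 67 and 13872). The sign turned for Kremen1 in TECs (−0.34) and Lrp6 in TECs (−0.079) in the largest cluster, for Kremen1 in fibroblasts with free RNA subtracted (0.342), and for Lrp5 in fibroblasts after thinning (−0.117) and in the largest cluster (−0.186). The cause was not tested. For single genes, 368 values kept direction and side of the threshold, 105 lost and 4 gained the call, and 5 turned. The largest-cluster fit was not run for vessel cells, and a lone library was assumed to vary like the others. With 2 libraries per genotype and 104 TECs in WT 2, low-count members are the least certain.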

Other observations

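A few members of the epithelium came from single cells of the mTEC2-like cluster, a cell type known for expressing genes of other tissues. In WT 1, Rspo2 had 460 UMIs, of which 349 lay in 1 cell and 103 in another. Dkk1 had 121 UMIs in WT 1, of which 111 lay in the same cell that held 103 UMIs of Rspo2. In WT 2, all 14 UMIs of Wif1 lay in 1 cell. None of these 3 genes passed the filter on low counts in TECs.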
